A study of Mus musculus with 12 samples.

Results

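Leydig cells lie between the seminiferous tubules and make the hormones of the testis, testosterone and insulin-like factor 3. The genes described here are 10 that carry this work: Lhcgr, Nr5a1, Star, Cyp11a1, Hsd3b1, Hsd3b6, Cyp17a1, Hsd17b3, Srd5a1 and Insl3. They were selected by symbol, through the NCBI Gene ID of each row, and not by a cut on their values. Earlier results of these data were known when they were chosen. All 10 have a row among the 22221 rows of the deposited table, and all 10 passed the filter on low values (at least 1 FPKM in at least 3 libraries).

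Luteinizing hormone from the pituitary acts on its receptor on Leydig cells and raises cyclic AMP, which starts the transfer of cholesterol into mitochondria. A chain of cytochromes P450 and hydroxysteroid dehydrogenases then turns cholesterol into pregnenolone, progesterone, androstenedione and testosterone. In the mouse testis, where most cells are germ cells, Leydig cells are a small share of the tissue, and transcripts of the chain are among their most abundant.

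Testes of ICR mice, an outbred stock, gave 12 RNA-seq libraries in 4 groups of 3. Mice of the IMA10, IMC and Sa groups were dosed once, at 3 weeks of age, with busulfan, a DNA-alkylating agent toxic to spermatogonia. IMA10 mice then received gut microbiota of donors given alginate oligosaccharide (spelled Aligina Oligosaccharide in the labels) at 10 mg/kg body weight, IMC mice received microbiota of donors given ddH2O, Sa mice received saline, and Con mice had no treatment. In IMA10 and IMC the transfer lasted 2 weeks, and 3 weeks later the testes were taken. No such times are given for Sa or Con. The age of the Con mice is not given, and the series text speaks of cultured testis without naming a culture step. Column names of the Con libraries begin differently from all others, and a batch, if there was one, cannot be told apart from the lack of treatment. Nothing in the labels ties each library to an animal of its own, and p-values then measure only the spread between these libraries, which may be technical.

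The values are FPKM, a level scaled for transcript length and library size, and without counts their depth is unknown. FPKM summed to between 483255 and 519355 in the IMA10 libraries, 476127 and 501122 in IMC, 476294 and 491708 in Sa, and 569055 and 576093 in Con. IMA10 replicate 3 stood apart from its group: across all genes tested, its log2 values correlated at 0.61 and 0.71 with the other IMA10 libraries and at 0.92 to 0.93 with the Con libraries. Fold changes and counts in IMA10 are therefore given with and without it. The summed FPKM of 8 spermatid markers (among them Prm2, a protamine) was 32.11 to 3082 in IMA10, 97.03 to 220.7 in IMC, 172.9 to 1815 in Sa and 35040 to 37200 in Con, and the upper end of IMA10 is replicate 3. Fold changes below are on the log2(FPKM + 1) scale with limma's moderated standard error (SE), and a gene is called where the Benjamini-Hochberg adjusted p over all 15472 genes tested is under 0.05.

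To show the stretch of DNA from which these transcripts start, 300-base promoter windows (250 bases before to 50 after the start, RefSeq, GRCm38.p6) are printed for 4 of the genes: Insl3 (chr8:71689002-71689301, plus strand), the most abundant; the paralogs Hsd3b1 (chr3:98859745-98860044, minus strand) and Hsd3b6 (chr3:98814394-98814693, minus strand), which catalyse the same step; and Srd5a1 (chr13:69611414-69611713, minus strand), whose values differed most from the rest. All are written 5′ to 3′ on the strand of the gene. Capitals mark CAAGGNC, the core of the site bound by Nr5a1, and GATAA, the core of the site bound by Gata factors, on either strand.
Insl3: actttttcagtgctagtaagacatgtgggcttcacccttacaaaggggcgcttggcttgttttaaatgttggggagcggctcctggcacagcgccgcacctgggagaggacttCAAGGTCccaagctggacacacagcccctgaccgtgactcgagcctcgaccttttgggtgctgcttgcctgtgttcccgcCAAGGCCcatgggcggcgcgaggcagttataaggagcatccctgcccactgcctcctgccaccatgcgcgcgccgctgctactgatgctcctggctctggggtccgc
Hsd3b1: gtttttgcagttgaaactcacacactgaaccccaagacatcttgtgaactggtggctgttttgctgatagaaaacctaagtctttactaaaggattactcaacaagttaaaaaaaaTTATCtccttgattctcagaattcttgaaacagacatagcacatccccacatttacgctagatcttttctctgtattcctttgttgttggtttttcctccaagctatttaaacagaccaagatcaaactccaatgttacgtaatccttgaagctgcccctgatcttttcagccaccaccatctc
Hsd3b6: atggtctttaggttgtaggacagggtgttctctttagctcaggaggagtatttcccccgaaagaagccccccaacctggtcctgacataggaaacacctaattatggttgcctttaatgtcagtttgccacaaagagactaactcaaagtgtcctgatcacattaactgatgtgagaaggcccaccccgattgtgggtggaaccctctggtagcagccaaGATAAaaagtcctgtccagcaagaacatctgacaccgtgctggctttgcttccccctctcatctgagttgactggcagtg
Srd5a1: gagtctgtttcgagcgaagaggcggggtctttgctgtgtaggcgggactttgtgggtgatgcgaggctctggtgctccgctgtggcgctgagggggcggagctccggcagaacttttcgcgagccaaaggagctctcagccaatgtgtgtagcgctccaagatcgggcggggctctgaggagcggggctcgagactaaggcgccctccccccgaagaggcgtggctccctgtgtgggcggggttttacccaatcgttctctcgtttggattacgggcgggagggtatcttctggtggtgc

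The RefSeq promoter table held windows for 7 of the 10 genes (8 windows, since Cyp11a1 has 2), and not for Star, Cyp17a1 and Nr5a1. CAAGGNC occurred in 1 of the 8 windows, that of Insl3, with 2 matches that begin 137 and 57 bases before the start. It was found in 17.8% of all 32851 windows of that length in the table. The longer form CAAGGNCA was searched first and occurred in 0 of the 8 windows, against 6.71% of all windows, and the shorter form was chosen after that was seen. GATAA occurred in 3 of the 8, those of Hsd3b1 (on the opposite strand, 134 bases before the start), Hsd3b6 (30 bases before) and Hsd17b3 (21 bases after), against 25.4% of all windows. The Srd5a1 window held none of these letters. The windows of Hsd3b1 and Hsd3b6 shared no run longer than 7 bases, and 29.3% of their positions were identical when laid side by side. These matches describe the letters and do not show that a factor binds there.

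Each of the 10 genes was higher in every busulfan library than in every Con library. Apart from Srd5a1, they stood at 1.98 to 3.76 times the Con mean in IMA10 replicate 3 and at 4.18 to 24 times in the other 8 busulfan libraries. Against Con, limma called 10 of 10 higher in IMA10, 9 of 10 in IMC and 10 of 10 in Sa, and 0 lower. Among all genes tested, 47.7% were called higher and 23.9% lower in IMA10, 50.8% and 23.3% in IMC, and 52.0% and 19.2% in Sa. Libraries did not overlap, with the busulfan group higher, for all 10 genes in each comparison, against 49.3% of all genes in IMA10, 55.1% in IMC and 56.9% in Sa. The median log2 fold change of the 10 genes was 2.44 in IMA10, 3.20 in IMC and 3.33 in Sa, beside 0.41, 0.52 and 0.60 over all genes tested. Without IMA10 replicate 3, the 10 genes were called higher in IMA10 with a median of 3.14, where 51.5% of all genes were called higher and 35.1% lower. The 3 comparisons share the Con libraries and are not independent of each other. In a whole testis, more Leydig cells per testis RNA and more RNA of these genes per Leydig cell cannot be told apart, and both FPKM and germ cell transcripts are shares of one total.

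**Figure D1:**
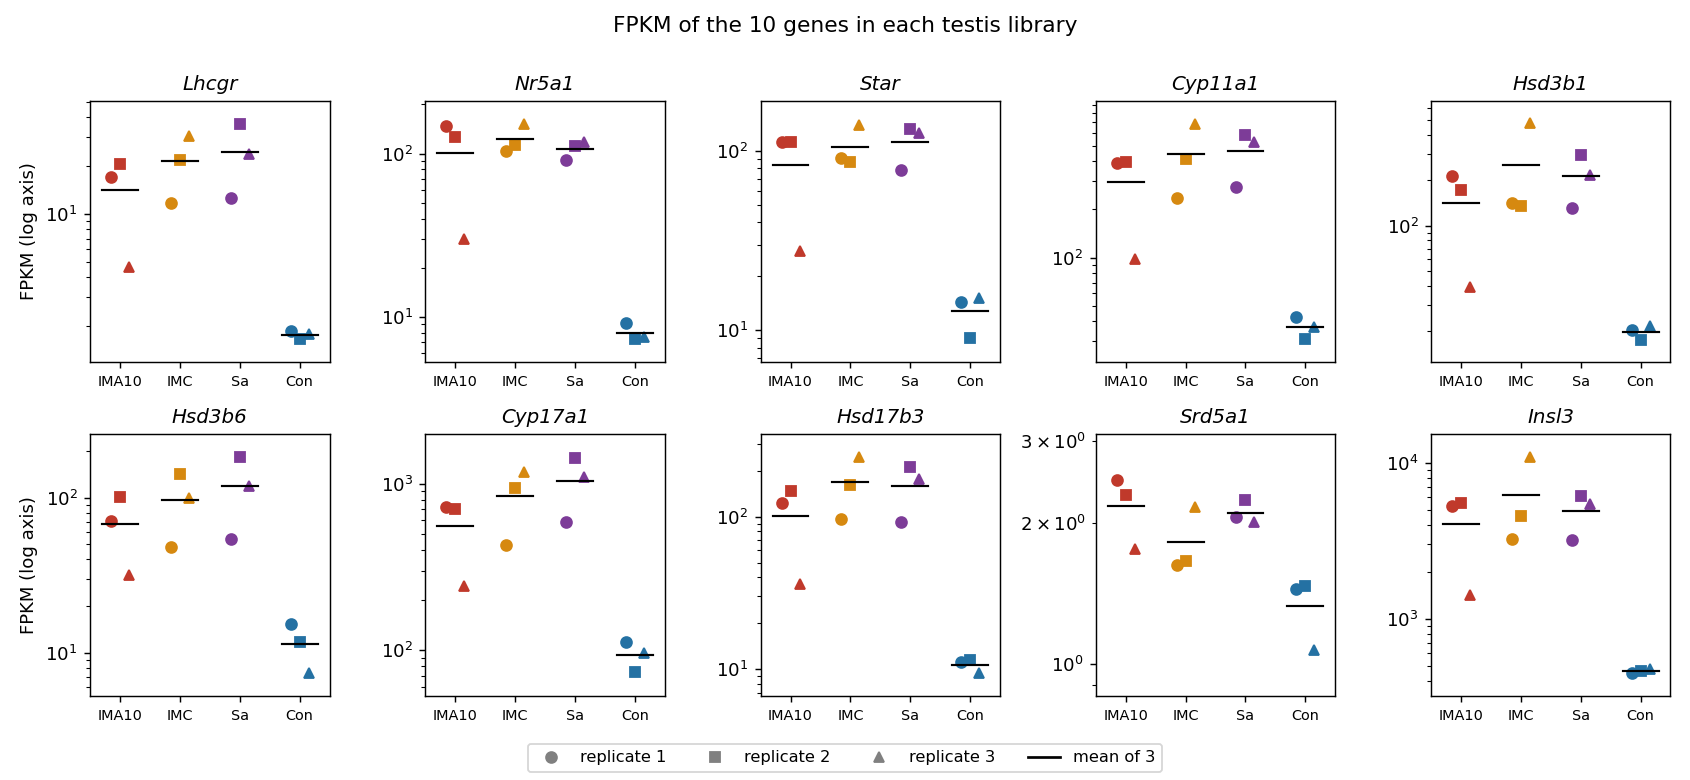
FPKM (log axis) of the 10 genes in each library, by group (IMA10, IMC, Sa, Con), with a bar at the mean of 3 libraries. Every busulfan library lies above every Con library in all 10 panels, IMA10 replicate 3 lies lowest among the busulfan libraries in all panels but that of Srd5a1, and Srd5a1 spans only 1.07 to 2.48 FPKM.

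Lhcgr encodes the receptor for luteinizing hormone. It had 17.1, 20.4 and 4.67 FPKM in the IMA10 libraries, 11.6, 21.8 and 30.4 in IMC, 12.5, 36.4 and 23.6 in Sa, and 1.84, 1.65 and 1.76 in Con. The busulfan groups overlapped each other, and none of their libraries reached down to Con, the lowest being IMA10 replicate 3. The log2 fold change was 2.24 ± 0.54 in IMA10 (SE, n = 3 libraries a group, adjusted p = 0.00457, limma), 2.92 ± 0.54 in IMC (adjusted p = 0.000821) and 3.07 ± 0.54 in Sa (adjusted p = 0.000658).

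Nr5a1, also called SF-1, is the nuclear receptor that switches on most genes of steroid synthesis in Leydig cells, and it is also expressed in Sertoli cells. Its level was 146.6, 125.8 and 30.1 FPKM in IMA10, 103.8, 112.9 and 151.4 in IMC, 91.5, 111.6 and 117.1 in Sa, and 9.17, 7.35 and 7.49 in Con. Apart from IMA10 replicate 3, the busulfan libraries lay within a factor of 1.65 of each other. Nr5a1 rose by 3.22 ± 0.48 in IMA10 (adjusted p = 0.000916, limma), 3.77 ± 0.48 in IMC (adjusted p = 0.000308) and 3.58 ± 0.48 in Sa (adjusted p = 0.000353), log2 fold changes that were the largest of the 10 genes in IMA10 and IMC.

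Star, the steroidogenic acute regulatory protein, moves cholesterol to the inner mitochondrial membrane, the step that luteinizing hormone controls acutely. It had 112.2, 111.8 and 27.7 FPKM in IMA10, 91.8, 86.5 and 139.3 in IMC, 78.5, 132.7 and 126.5 in Sa, and 14.4, 9.10 and 15.1 in Con. The lowest busulfan library, IMA10 replicate 3, was still above the highest Con library. Star rose by 2.40 ± 0.49 on the log2 scale in IMA10 (adjusted p = 0.00209, limma), 2.94 ± 0.49 in IMC (adjusted p = 0.0005) and 3.03 ± 0.49 in Sa (adjusted p = 0.000482).

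Cyp11a1, the mitochondrial side-chain cleavage enzyme that makes pregnenolone, had 391.9, 395.5 and 98.8 FPKM in IMA10, 236.1, 415.3 and 682.2 in IMC, 274.7, 585.0 and 527.4 in Sa, and 42.6, 31.1 and 37.1 in Con. Apart from IMA10 replicate 3, the lowest and the highest busulfan library both belonged to IMC and differed by a factor of 2.89. The log2 fold change was 2.73 ± 0.56 in IMA10 (adjusted p = 0.00206, limma), 3.44 ± 0.56 in IMC (adjusted p = 0.000441) and 3.55 ± 0.56 in Sa (adjusted p = 0.00043).

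Hsd3b1 and Hsd3b6 encode 3β-hydroxysteroid dehydrogenases, which convert pregnenolone to progesterone. Hsd3b1 had 213.9, 173.1 and 39.4 FPKM in IMA10, 142.5, 135.1 and 477.9 in IMC, 132.1, 295.6 and 215.5 in Sa, and 20.4, 17.6 and 21.6 in Con. IMC replicate 3 stood well above the other busulfan libraries. Hsd3b6, which in the mouse is known as the isoform of adult Leydig cells, had 70.3, 100.3 and 31.7 FPKM in IMA10, 47.9, 141.6 and 98.9 in IMC, 53.9, 182.7 and 119.7 in Sa, and 15.2, 11.8 and 7.43 in Con. Here Sa replicate 2 was highest, so the paralogs did not peak in the same library. Hsd3b1 rose by 2.46 ± 0.65 in IMA10 (adjusted p = 0.00745, limma), 3.34 ± 0.65 in IMC (adjusted p = 0.00115) and 3.30 ± 0.65 in Sa (adjusted p = 0.00128). The log2 fold change of Hsd3b6 was 2.36 ± 0.56 in IMA10 (adjusted p = 0.00447, limma), 2.88 ± 0.56 in IMC (adjusted p = 0.00117) and 3.15 ± 0.56 in Sa (adjusted p = 0.000747).

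The Hsd3b genes are close copies, so reads could be split between them in the authors' counting. Of the 1851 stretches of 50 bases in the GENCODE protein-coding transcripts of Hsd3b1, 2.16% also occur in another family member, and 2.05% occur in Hsd3b6. For Hsd3b6, 16.0% of 1753 stretches occur elsewhere in the family, chiefly in Hsd3b2 (13.5%) and Hsd3b3 (12.5%). Hsd3b2 to Hsd3b5 were listed at 0 in nearly all libraries, with single values of 0.03 for Hsd3b2 in IMC, 0.07 for Hsd3b3 in IMA10, and 0.07 for Hsd3b4 and 0.04 for Hsd3b5 in Con. Hsd3b7, which acts in bile acid synthesis, had 12.6, 12.2 and 2.27 FPKM in IMA10, 8.68, 9.62 and 11.7 in IMC, 6.79, 11.3 and 9.42 in Sa, and 1.38, 0.83 and 0.87 in Con.

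Cyp17a1, the enzyme of 17-hydroxylation and side-chain removal that yields androstenedione, was the most abundant enzyme transcript. It had 725.0, 698.4 and 241.6 FPKM in IMA10, 428.8, 939.7 and 1165 in IMC, 585.3, 1425 and 1090 in Sa, and 112.6, 74.0 and 95.7 in Con. Within each group the libraries differed by more than a factor of 2, except in Con. Cyp17a1 rose by 2.41 ± 0.51 in IMA10 (adjusted p = 0.00246, limma), 3.05 ± 0.51 in IMC (adjusted p = 0.000505) and 3.37 ± 0.51 in Sa (adjusted p = 0.000396).

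Hsd17b3 reduces androstenedione to testosterone. It had 122.1, 146.3 and 35.9 FPKM in IMA10, 96.4, 161.5 and 247.0 in IMC, 92.0, 210.5 and 177.7 in Sa, and 11.2, 11.4 and 9.41 in Con. The lowest busulfan library, IMA10 replicate 3, was more than 3 times the highest Con library. Its log2 fold change was 2.91 ± 0.53 in IMA10 (adjusted p = 0.00125, limma), 3.76 ± 0.53 in IMC (adjusted p = 0.000308) and 3.71 ± 0.53 in Sa (adjusted p = 0.000361), the last ranking 106 of 15472 genes tested.

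Srd5a1, a 5α-reductase that turns testosterone into dihydrotestosterone, was the exception. It had 2.48, 2.30 and 1.76 FPKM in IMA10, 1.63, 1.66 and 2.17 in IMC, 2.06, 2.24 and 2.01 in Sa, and 1.45, 1.47 and 1.07 in Con. The groups did not overlap with Con, but the gap between IMC replicate 1 and Con replicate 2 was small. The log2 fold change was 0.45 ± 0.15 in IMA10 (adjusted p = 0.022, limma), 0.27 ± 0.15 in IMC (adjusted p = 0.114, not called) and 0.42 ± 0.15 in Sa (adjusted p = 0.0281), beside all-gene medians of 0.41, 0.52 and 0.60. Its calls changed on leaving out single libraries. In IMA10, Srd5a1 did not pass without IMA10 replicate 1 (adjusted p = 0.0754, limma), IMA10 replicate 2 (0.0605) or Con replicate 3 (0.0908), nor in a fit of IMA10 and Con alone (0.098). In Sa it did not pass without Sa replicate 1 (adjusted p = 0.0563, limma), 2 (0.0823) or 3 (0.0542) or without Con replicate 3 (0.114), and in IMC it passed without IMA10 replicate 3 (0.0484). The direction turned with the scaling in IMC and Sa and not in IMA10: with median-of-ratios scaling, which shifted the all-gene median by -0.43 in IMA10, -0.55 in IMC and -0.62 in Sa, Srd5a1 was at 0.10, -0.17 and -0.09, and with quantile normalization (shifts of -0.18, -0.34 and -0.41) at 0.20, -0.23 and -0.19, none of them called. The other 9 genes stayed called and higher against Con under both scalings and under every alternative tried. Srd5a2, the other 5α-reductase of steroid target tissues, did not exceed 0.08 FPKM in any library.

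Insl3, the peptide hormone of Leydig cells that guides testis descent before birth and marks mature Leydig cells afterwards, was the most abundant of the 10 genes in every library. It had 5271, 5512 and 1419 FPKM in IMA10, 3248, 4563 and 10883 in IMC, 3199, 6165 and 5463 in Sa, and 449.9, 465.0 and 475.0 in Con. The Con libraries agreed within a factor of 1.06, whereas the highest of the 8 busulfan libraries without IMA10 replicate 3 was 3.40 times the lowest. Among all rows of the table, Insl3 ranked 3rd to 14th from the top in IMA10, 2nd or 3rd in IMC, 2nd to 4th in Sa and 148th to 171st in Con. Its log2 fold change was 2.90 ± 0.56 in IMA10 (adjusted p = 0.00159, limma), 3.55 ± 0.56 in IMC (adjusted p = 0.000389) and 3.36 ± 0.56 in Sa (adjusted p = 0.000542). Without IMA10 replicate 3, the value in IMA10 was 3.54 ± 0.44 (adjusted p = 2.84e-05), the other 8 genes apart from Srd5a1 lay between 2.82 (Hsd3b6) and 3.93 (Nr5a1), and Srd5a1 was at 0.55 ± 0.13 (adjusted p = 0.00275).

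**Figure D2:**
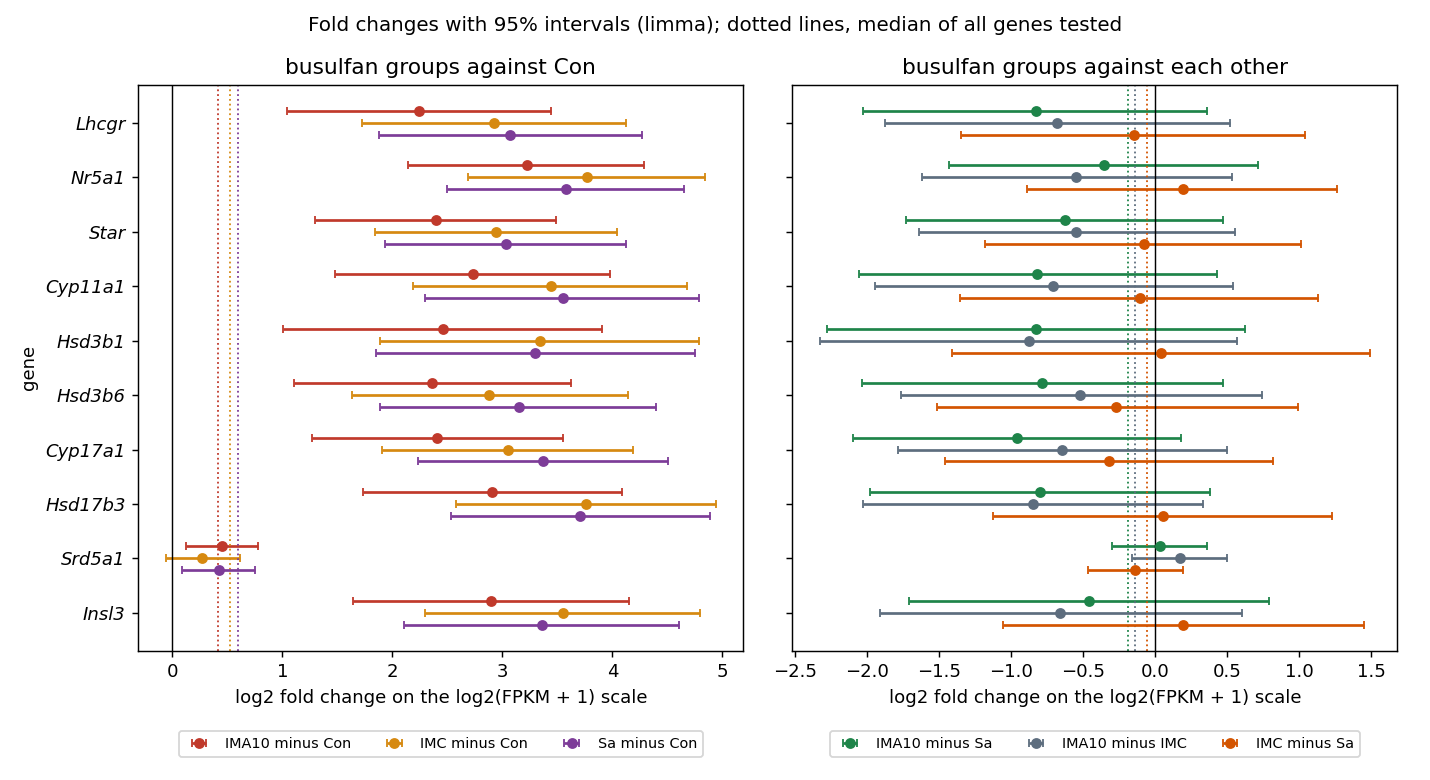
Log2 fold changes (x axis, log2(FPKM + 1) scale) of the 10 genes with limma's 95% intervals, busulfan groups against Con on the left and against each other on the right, with dotted lines at the median of all genes tested. On the left 9 genes lie between 2.24 and 3.77 and Srd5a1 between 0.27 and 0.45, and on the right every interval includes 0.

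The order of levels per transcript length was much the same in all groups: Insl3 first, then Cyp17a1, Cyp11a1 and Hsd3b1, with Lhcgr ninth and Srd5a1 last by group mean. Mean FPKM of Insl3 was 4067 ± 2300 in IMA10, 6232 ± 4080 in IMC, 4942 ± 1550 in Sa and 463.3 ± 12.6 in Con (SD, n = 3 each). The next in order, Cyp17a1, averaged 555.0 ± 272, 844.4 ± 377 and 1033 ± 423 FPKM in IMA10, IMC and Sa, and 94.1 ± 19.4 in Con. Libraries of these neighbours did not overlap in any group, nor did those of Lhcgr and Srd5a1. In the middle of the order the ranges of neighbours across libraries overlapped in the busulfan groups, which takes no account of genes moving together within a library. Within single libraries, Hsd17b3 exceeded Star and Hsd3b6 in every busulfan library. Nr5a1 exceeded Star in every IMA10 and IMC library, but not in Sa replicates 2 and 3. The order of Hsd17b3 and Nr5a1, and that of Hsd3b6 against Star or Nr5a1, changed between busulfan libraries. In Con, by contrast, Hsd17b3 (10.65 ± 1.08) and Nr5a1 (8.003 ± 1.01) stood seventh and eighth with no overlap, and Star (12.9 ± 3.30) and Hsd3b6 (11.5 ± 3.91) overlapped.

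To set neighbouring genes against each other within a library, 9 steps along the chain were compared between the 9 busulfan and the 3 Con libraries with a two-sided exact permutation test, whose smallest possible p is 0.00909. The 9 busulfan libraries pool the IMA10, IMC and Sa groups, which differ in treatment. These ratios are differences of log2(FPKM + 1), so for genes of a few FPKM they also move with the pseudocount and the scaling. Star relative to Nr5a1 was lower after busulfan: the log2 ratio was -0.13 ± 0.21 in the busulfan libraries (SD, n = 9) and 0.60 ± 0.33 in Con (SD, n = 3), a difference of -0.73 (exact p = 0.00909, adjusted over 9 ratios 0.0409). The exact p is the smallest possible. Its adjusted value is under 0.05 only because a second ratio, Srd5a1 over Hsd17b3, stood at the same p. That second ratio, given below, restates values of single genes. As plain ratios of FPKM, Star over Nr5a1 was 0.765, 0.889 and 0.920 in IMA10, 0.885, 0.766 and 0.920 in IMC, 0.858, 1.19 and 1.08 in Sa, and 1.57, 1.24 and 2.02 in Con. The highest busulfan library, Sa replicate 2, lay just below the lowest Con library. Nr5a1 is also expressed in Sertoli cells. Against Con, its log2 fold change was 3.22 in IMA10, 3.77 in IMC and 3.58 in Sa, and that of Star 2.40, 2.94 and 3.03. The medians of 12 Sertoli cell markers were 3.52, 3.83 and 3.60 in the same order. The part of cell mix in the ratio of Star to Nr5a1 was not tested.

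Srd5a1 relative to Hsd17b3 was also lower after busulfan, at -5.41 ± 0.77 in busulfan libraries (SD, n = 9) and -2.32 ± 0.01 in Con (SD, n = 3), a difference of -3.08 (exact p = 0.00909, adjusted 0.0409). IMA10 replicate 3 lay nearest to Con, at -3.74. This result restates the values of the single genes and is not separate from them. Hsd17b3 stood at 3.37 to 23.2 times its Con mean in the busulfan libraries, and Srd5a1 at 1.23 to 1.86 times. Hsd17b3 over Cyp17a1 differed by 0.52 (exact p = 0.0455, adjusted 0.136) and Cyp11a1 over Star by 0.45 (exact p = 0.0636, adjusted 0.143), which did not pass. Without IMA10 replicate 3 the differences for Star over Nr5a1 and Srd5a1 over Hsd17b3 were -0.74 and -3.29, with no overlap between busulfan and Con libraries, but an adjusted exact p of 0.0545 for each. Leaving out any 1 library raises the smallest p, and with any library other than IMC replicate 1 left out, 0 of 9 ratios passed. Without IMC replicate 1, Cyp11a1 over Star (0.52, adjusted exact p = 0.0364) also came to the smallest p. That lowered the adjusted p, and 3 ratios passed.

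**Figure D3:**
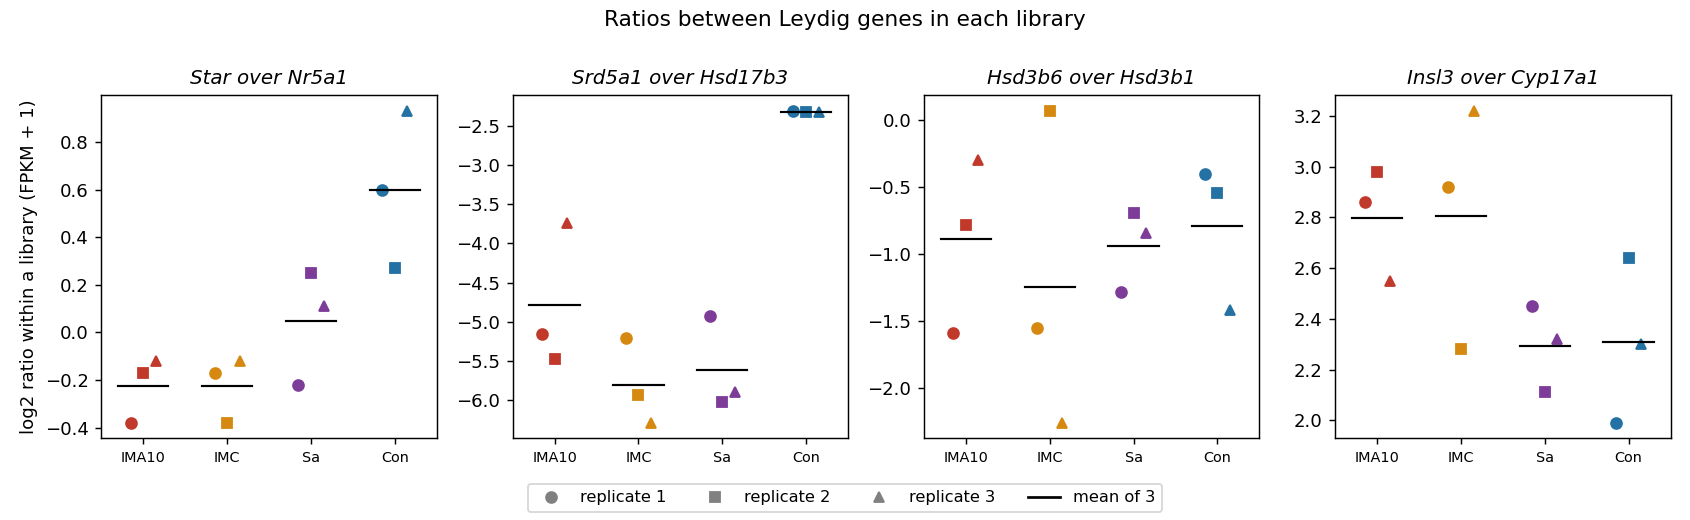
Log2 ratio of FPKM + 1 within each library for 4 gene pairs (y axis), by group, with a bar at the mean of 3 libraries. Star over Nr5a1 and Srd5a1 over Hsd17b3 are lower in all busulfan libraries than in Con, Hsd3b6 over Hsd3b1 varies most within IMC, and Insl3 over Cyp17a1 overlaps between the groups.

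The ratio between the paralogs Hsd3b6 and Hsd3b1 varied more between libraries than between groups. As FPKM ratios it was 0.329, 0.580 and 0.806 in IMA10, 0.336, 1.05 and 0.207 in IMC, 0.408, 0.618 and 0.555 in Sa, and 0.746, 0.669 and 0.344 in Con. Both extremes of the 12 libraries belonged to IMC. The log2 difference between busulfan and Con was -0.24 (exact p = 0.618, adjusted 0.695). Insl3 over Cyp17a1, the ratio of the peptide hormone to the main androgen enzyme, had log2 means of 2.80 ± 0.22 in IMA10, 2.81 ± 0.48 in IMC, 2.30 ± 0.17 in Sa and 2.31 ± 0.32 in Con (SD, n = 3 each). Its busulfan and Con libraries differed by 0.32 (exact p = 0.218, adjusted 0.393). Star over Lhcgr (0.04, exact p = 0.864, and -0.36 with a pseudocount of 0.1), Cyp17a1 over Hsd3b6 (0.15, exact p = 0.555) and Hsd3b1 over Cyp11a1 (-0.20, exact p = 0.336) did not pass either.

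Among the busulfan groups, none of the 10 genes differed by limma in IMA10 or IMC against Sa or in IMA10 against IMC, and their libraries overlapped in every case. The same test called 0.0% of all genes in each direction in all 3 comparisons. At an unadjusted p under 0.05 there were 928 genes for IMA10 against Sa, 328 for IMA10 against IMC and 134 for IMC against Sa, and 0 of the 10 genes were among them. Libraries did not overlap for 0.633% of genes with IMA10 higher and 7.17% with IMA10 lower than Sa, 0.478% and 2.88% for IMA10 against IMC, and 3.32% and 6.02% for IMC against Sa. The comparisons with Sa share its libraries.

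Intervals were wide. For IMA10 against Sa the largest difference was that of Cyp17a1, with a log2 fold change of -0.96 (95% interval -2.10 to 0.18, adjusted p = 0.916), and Insl3 was at -0.46 (-1.71 to 0.79, adjusted p = 0.981). For IMA10 against IMC, Hsd3b1 was at -0.88 (-2.33 to 0.57, adjusted p = 1) and Insl3 at -0.66 (-1.91 to 0.60). For IMC against Sa the 10 values ran from -0.32 (Cyp17a1, -1.46 to 0.82) to 0.19 (Insl3, -1.06 to 1.45). Srd5a1 had the narrowest, from -0.30 to 0.36 for IMA10 against Sa.

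IMA10 replicate 3 decided the values of IMA10. Without it, the median of the 10 genes against Sa was -0.12, beside -0.79 with it, and 0 of 10 were called while 7.34% of all genes were called higher and 24.5% lower. Nr5a1 was then at 0.35 ± 0.18 (adjusted p = 0.15, limma), Insl3 at 0.18 ± 0.44 (adjusted p = 0.776) and Cyp17a1 at -0.44 ± 0.44 (adjusted p = 0.463). In the same fit all 12 Sertoli cell markers were called higher in IMA10 than in Sa (median 0.65), all 8 spermatid markers lower (median -3.43), and 0 of 8 other Leydig markers (median -0.30) and 0 of 7 macrophage markers (median -0.25) in either direction. IMA10 against IMC without that library had 0.0% of all genes called higher and 0.0129%, 2 genes, called lower, with 0 of the 10 genes among them.

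The size of the rise differed from library to library within each group. Taking each gene as a multiple of its Con mean, the median of the 10 genes was 10.2, 9.73 and 2.67 in IMA10, 6.82, 10.6 and 17.9 in IMC, and 6.77, 15 and 11.7 in Sa. The same measure over 12 Sertoli cell markers was 23.4, 19.0 and 4.16 in IMA10, 17.6, 16.2 and 18.7 in IMC, and 12.5, 14.1 and 16.4 in Sa. Over all genes tested it lay between 1.41 and 1.72 in every busulfan library. Leydig genes and Sertoli markers were thus both low in IMA10 replicate 3, but in the other libraries they took different orders.

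Apart from IMA10 replicate 3, the highest busulfan library exceeded the lowest by a median of 3.02 times for the 10 genes, from 1.52 for Srd5a1 to 3.81 for Hsd3b6. The other Leydig markers had a median of 3.57, against 1.90 for Sertoli, 2.13 for macrophage, 2.08 for endothelial, 1.77 for Leydig progenitor and 1.62 for peritubular myoid markers, 1.79 for Leydig transcription factors, 16 for spermatocyte and 44 for spermatid markers. Among the other Leydig markers, Klk1b21 and Klk1b24, which may share reads, were at 4.15 each, Klk1b27 at 5.22 and Fabp3 at 11.6. The rest of that list ran from 2.04 (Aldh1a1) to 2.98 (Vcam1). Nr5a1 (1.65) and Star (1.77) lay at the low end of the 10 genes, Lhcgr (3.14), Cyp17a1 (3.32), Insl3 (3.40) and Hsd3b1 (3.62) at the high end. IMC replicate 3 or Sa replicate 2 was highest for 9 of the 10 genes, and IMC replicate 1 or Sa replicate 1 lowest for all 10. This is a description of 8 libraries and was not tested.

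**Figure D4:**
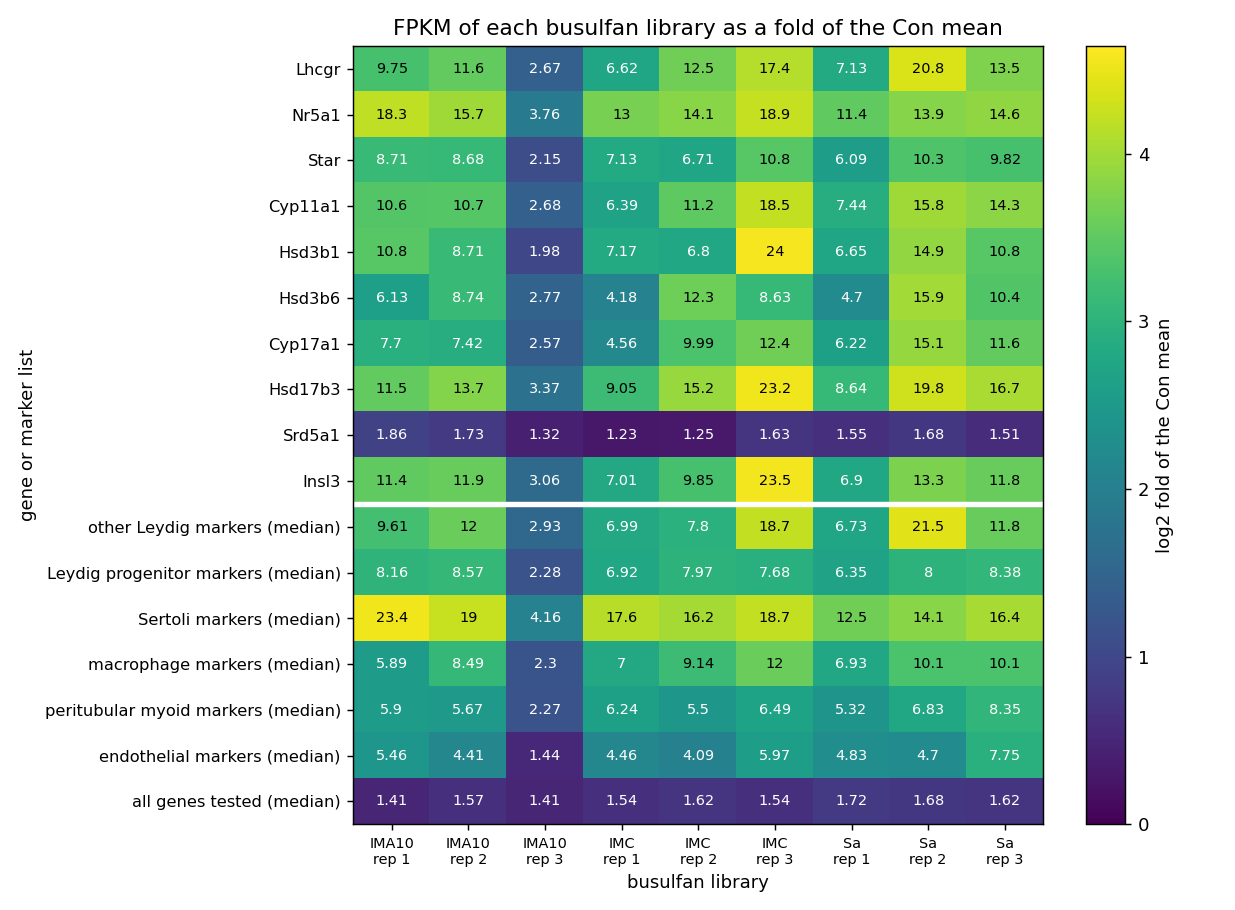
FPKM of each busulfan library (columns) as a multiple of the Con mean for the 10 genes and for the median of 6 marker lists and of all genes tested (rows), coloured on a log2 scale. IMA10 replicate 3 has the lowest multiple in every row but those of Srd5a1 and of all genes tested. It stands at 2.67 for the median of the 10 genes and at 4.16 for the Sertoli markers. The Srd5a1 row resembles that of all genes.

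Relative to Sertoli markers, the 10 genes were lower in most busulfan libraries. The median multiple of the 10 genes divided by that of the Sertoli markers was 0.435, 0.512 and 0.642 in IMA10, 0.387, 0.655 and 0.958 in IMC, 0.542, 1.06 and 0.713 in Sa, and 1.04, 0.912 and 1.08 in Con. Every IMA10 library lay below every Con library, and IMC replicate 3 and Sa replicate 2 lay within the Con range. This holds for Sertoli markers only. The median multiple of the 10 genes was above those of peritubular myoid and endothelial markers in every busulfan library (10.2 against 5.9 and 5.46 in IMA10 replicate 1). It was above that of macrophage markers in all busulfan libraries but IMC replicate 1 and Sa replicate 1.

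**Figure D5:**
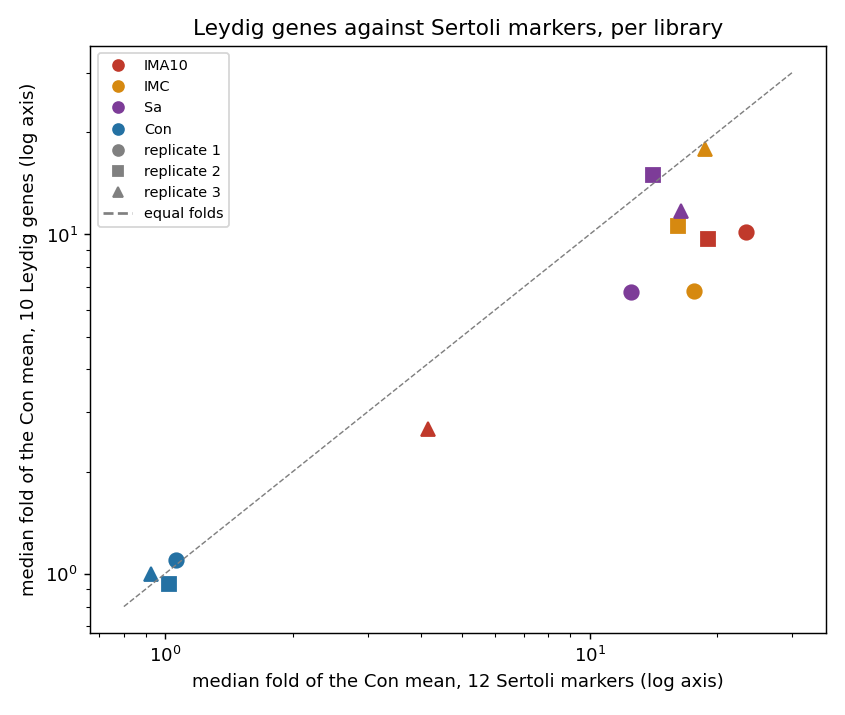
Median multiple of the Con mean of the 10 Leydig genes (y axis, log) against that of 12 Sertoli markers (x axis, log), 1 point a library, with a dashed line where both are equal. Sa replicate 2 and IMC replicate 3 lie at the line, the other busulfan libraries below it, and IMA10 replicate 3 lies between Con and the rest on both axes.

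The counts for other gene lists below stand against 47.7% of all genes called higher and 23.9% lower in IMA10, 50.8% and 23.3% in IMC, and 52.0% and 19.2% in Sa, with all-gene medians of 0.41, 0.52 and 0.60. Of the 118 list genes tested, 18 passed the filter with no Con library at 1 FPKM and 2 with no busulfan library there; such genes could hardly come out otherwise than high on the side that admitted them. Of 12 genes of cholesterol supply, none of which was admitted by 1 side alone, 11 were called higher and 1 lower in each of the 3 comparisons with Con (median log2 fold change 2.13 in IMA10, 2.56 in IMC and 2.63 in Sa), and the counts in IMA10 were the same without its replicate 3 (median 2.75). Npc1, which exports cholesterol from lysosomes, rose by 1.65 ± 0.28 in IMA10, 2.09 ± 0.28 in IMC and 2.09 ± 0.28 in Sa, and Dbi, a ligand of the mitochondrial protein Tspo, by 2.06 ± 0.37, 2.46 ± 0.37 and 2.26 ± 0.37 in the same order. Npc1 was at 2.02 and Dbi at 2.58 in IMA10 without its replicate 3. The exception was Lipe, hormone-sensitive lipase, which frees cholesterol from its esters and is also expressed in germ cells. Lipe had 4.27, 5.33 and 21.5 FPKM in IMA10, 5.47, 8.25 and 7.56 in IMC, 14.02, 12.5 and 8 in Sa, and 153.2, 144.4 and 144.4 in Con, and fell by 4.03 ± 0.46, 4.21 ± 0.46 and 3.60 ± 0.46 in IMA10, IMC and Sa (adjusted p = 0.000374, 0.000218 and 0.000351, limma). Lipe was at -4.68 in IMA10 without its replicate 3. IMA10 replicate 3 and Sa replicates 1 and 2 were the highest busulfan libraries for Lipe and for the summed spermatid markers, and the part of germ cells in its level was not tested.

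All 7 genes of electron transfer to the steroid P450 enzymes were called higher in each comparison with Con, with medians of 1.75 in IMA10 (2.14 without replicate 3), 2.17 in IMC and 2.26 in Sa. H6pd, which supplies cofactor to a steroid dehydrogenase, was admitted by busulfan libraries alone. Por, the reductase that serves Cyp17a1, rose by 1.61 ± 0.32 in IMA10, 1.95 ± 0.32 in IMC and 2.18 ± 0.32 in Sa. Cyb5a, the cytochrome b5 that favours the side-chain removal by Cyp17a1, had 351.8, 318.7 and 77.5 FPKM in IMA10, 267.2, 257.2 and 314.7 in IMC, 204.8, 220.1 and 260.7 in Sa, and 28.3, 28.6 and 30 in Con. Cyb5r3, a cytochrome b5 reductase, rose by 1.75 ± 0.31 in IMA10, 2.17 ± 0.31 in IMC and 2.31 ± 0.31 in Sa, and Cyb5b, the mitochondrial cytochrome b5, by 1.89 ± 0.32, 2.21 ± 0.32 and 2.26 ± 0.32. The values in IMA10 without replicate 3 were 2.01 for Por, 3.49 for Cyb5a, 2.14 for Cyb5r3 and 2.34 for Cyb5b.

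Of 11 other steroid enzymes tested (21 listed), 9 were called higher and 1 lower in IMA10, 10 and 1 in IMC, and 9 and 1 in Sa, with medians of 1.57, 1.98 and 1.93. Without IMA10 replicate 3, 10 were called higher and 1 lower in IMA10 (median 2.02), and 10 and 1 in Sa. Of the 11, 4 were admitted by busulfan libraries alone and 1 by Con alone. Hsd17b11, which oxidizes androstanediol, rose by 3.47 ± 0.55 in IMA10, 4.16 ± 0.55 in IMC and 3.87 ± 0.55 in Sa. Hsd17b12, known chiefly for fatty acid elongation, rose by 2.85 ± 0.47, 3.49 ± 0.47 and 3.30 ± 0.47 in the same order. In IMA10 without replicate 3 they were at 4.29 and 3.56. Hsd17b7, an enzyme of cholesterol synthesis admitted by busulfan libraries alone, had 2.15 to 5.91 FPKM in IMA10, 4.58 to 7.63 in IMC, 5.26 to 7.45 in Sa and 0.53 to 0.86 in Con. The gene called lower was Cyp19a1, aromatase, named after its values were seen. It was admitted by Con alone, and had at most 0.42 FPKM in IMA10, 0.15 in IMC and 0.42 in Sa, against 1.28, 1.82 and 1.48 in Con.

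Of 10 transcription factors of Leydig cells, 8 were called higher and 1 lower in IMA10, and 9 higher and 0 lower in IMC and in Sa, and 4 of the 10 were admitted by busulfan libraries alone. The counts in IMA10 were 9 and 0 without its replicate 3. Gata4, which acts on the promoters of Star and Cyp17a1 and is shared with Sertoli cells, had 94.7, 80.4 and 18.2 FPKM in IMA10, 66.6, 69.0 and 79.8 in IMC, 55.6, 64.9 and 72.7 in Sa, and 5.95, 4.86 and 3.97 in Con. Nr0b1, a repressor of Nr5a1 known as DAX-1 and also present in Sertoli cells, rose by 3.09 ± 0.48 in IMA10, 3.58 ± 0.48 in IMC and 3.23 ± 0.48 in Sa. Nr2f2, a marker of stem and fetal-type Leydig cells and of other interstitial cells, rose by 1.57 ± 0.32, 1.88 ± 0.32 and 2.19 ± 0.32. Gata4 was at 3.91, Nr0b1 at 3.80 and Nr2f2 at 1.96 in IMA10 without its replicate 3. Nr4a1, which cyclic AMP induces in Leydig cells, was the gene called lower in IMA10, at -0.60 ± 0.23 (adjusted p = 0.0391, limma), and it was not called without IMA10 replicate 3 (-0.44, adjusted p = 0.0735). It was at -0.42 ± 0.23 in IMC (adjusted p = 0.123) and -0.37 ± 0.23 in Sa (adjusted p = 0.175), with all busulfan libraries below Con.

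Of 10 genes of cyclic AMP signalling, 7 were called higher and 2 lower in IMA10, and 8 and 2 in IMC and in Sa, with medians of 0.90 (1.14 without IMA10 replicate 3, with the same counts), 0.88 and 0.98. The share called lower, 2 of 10, was near that of all genes. Of the 10, 2 were admitted by busulfan libraries alone and 1 by Con alone. Gnas, the stimulatory G protein subunit that couples Lhcgr to adenylyl cyclase, rose by 2.75 ± 0.43 in IMA10, 3.21 ± 0.43 in IMC and 3.05 ± 0.43 in Sa. Prkacb, a catalytic subunit of protein kinase A, rose by 2.08 ± 0.34, 2.51 ± 0.34 and 2.45 ± 0.34. Both were higher in IMA10 without its replicate 3, at 3.40 and 2.55. Akap1, an anchoring protein that holds protein kinase A at mitochondria, was admitted by Con alone and is given by its values: it was listed at 0.04, 0 and 0.71 FPKM in IMA10, 0.10, 0.15 and 0.08 in IMC, 0.43, 0.33 and 0.08 in Sa, and 3.15, 3.12 and 3.40 in Con. The other gene called lower was Pde8a, a phosphodiesterase that breaks down cyclic AMP, at -1.41 ± 0.54, -1.65 ± 0.54 and -1.40 ± 0.54; it was named after its values were seen, and in IMA10 replicate 3 it exceeded Con, without which it was at -2.20 in IMA10.

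Leydig markers outside the 10 genes were read in the same way. Markers of other somatic cells rose too, with 12 of 12 Sertoli markers called higher in each comparison with Con. A rise against Con therefore cannot tell which somatic cells the 10 genes came from. Of 8 other Leydig markers, 7 were called higher in IMA10 and all 8 in IMC and in Sa, with medians of 2.75 (3.36 without IMA10 replicate 3, with 7 called), 3.14 and 3.16. Of the 8, 2 were admitted by busulfan libraries alone. Klk1b21, a kallikrein of mouse Leydig cells, had 70.5, 101.5 and 17.5 FPKM in IMA10, 35.5, 120.8 and 115.3 in IMC, 74.8, 122.3 and 147.2 in Sa, and 4.61, 3.40 and 2.16 in Con. Aldh1a1, which makes retinoic acid, had 1040, 1080 and 303.8 FPKM in IMA10, 702.6, 767.8 and 1372 in IMC, 673.2, 1097 and 1035 in Sa, and 111.6, 89.1 and 106.1 in Con. Klk1b24 rose by 3.24 ± 0.68 in IMA10, 3.87 ± 0.68 in IMC and 4.27 ± 0.68 in Sa, and it is a close relative of Klk1b21, so reads may be shared between them. Leaving out IMA10 replicate 3 gave values in IMA10 of 4.33 for Klk1b21, 3.37 for Aldh1a1 and 3.97 for Klk1b24.

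All 6 Leydig progenitor markers tested (7 listed) were also called higher in each comparison, with medians of 1.74 in IMA10 (2.25 without replicate 3), 2.15 in IMC and 2.18 in Sa, and 2 of the 6 were admitted by busulfan libraries alone. Pdgfra, the platelet-derived growth factor receptor of interstitial progenitors, rose by 2.87 ± 0.45, 3.28 ± 0.45 and 3.21 ± 0.45, Tcf21 by 2.41 ± 0.41, 2.65 ± 0.41 and 2.88 ± 0.41, and Ptch1, the hedgehog receptor, by 2.05 ± 0.38, 2.44 ± 0.38 and 2.45 ± 0.38. With IMA10 replicate 3 left out, these 3 genes were at 3.53, 2.95 and 2.59 in IMA10. Whether progenitor and mature Leydig genes rose by different amounts was not tested.

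Of 4 markers of adrenal-like cells, 1 passed the filter. Cyp21a1, steroid 21-hydroxylase, had 14.0, 7.81 and 1.25 FPKM in IMA10, 10.6, 11.3 and 43.5 in IMC, 8.32, 11.02 and 15.3 in Sa, and 1.25, 0.88 and 0.61 in Con. IMC replicate 3, which was also highest for Insl3, stood far above the rest, and IMA10 replicate 3 equalled the highest Con library. The log2 fold change was 1.82 ± 0.68 in IMA10 (adjusted p = 0.0351, limma; 2.60 without replicate 3), 3.29 ± 0.68 in IMC (adjusted p = 0.00161) and 2.69 ± 0.68 in Sa (adjusted p = 0.00522). Cyp11b1 and Cyp11b2, the enzymes of corticosteroid synthesis, and Mc2r, the corticotropin receptor, did not exceed 0.15 FPKM in any library.

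Markers of other somatic cells rose with the Leydig genes. All 12 Sertoli markers were called higher in each comparison with Con (medians 3.52 in IMA10, 3.83 in IMC and 3.60 in Sa), with Inha at 4.25 ± 0.55, 4.67 ± 0.55 and 4.41 ± 0.55, and so were 6 of 7 macrophage markers in IMA10 (median 1.72) and 7 of 7 in IMC and Sa (2.59 in both). All 6 peritubular myoid markers were called higher in each, and 5, 6 and 7 of 7 endothelial markers in IMA10, IMC and Sa. Lyz2, lysozyme of macrophages, was at 2.42 ± 0.45, 3.46 ± 0.45 and 3.22 ± 0.45 in the same order, Acta2, smooth muscle actin, at 2.29 ± 0.35, 2.77 ± 0.35 and 2.95 ± 0.35, and Cdh5, the endothelial cadherin, at 1.97 ± 0.36, 2.16 ± 0.36 and 2.36 ± 0.36. The summed FPKM of the macrophage markers was 64.45 to 255.0 in IMA10, 211.5 to 359.2 in IMC, 196.2 to 297.3 in Sa and 29.38 to 37.89 in Con. In these lists, 1 Sertoli, 1 macrophage and 1 endothelial marker were admitted by busulfan libraries alone. Spermatid markers were called lower, 8 of 8 in each comparison, and of 7 spermatocyte markers 3 were called lower in IMA10, 1 in IMC and 1 in Sa. Without IMA10 replicate 3, the calls in IMA10 were 7 macrophage and 6 endothelial markers higher, and 7 spermatocyte markers were called lower in IMA10, 5 in IMC and 4 in Sa. In IMA10 Inha was then at 5.08, Lyz2 at 3.0, Acta2 at 2.75 and Cdh5 at 2.47. The part of these shifts in the values of the 10 genes was not tested.

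Of 6 genes known to respond to Leydig hormones in other cells, 4 were called higher in each comparison with Con, and 1 was called lower in IMA10 (Rxfp2) and 2 in IMC and in Sa (Rxfp2 and Cldn3), and the counts in IMA10 were the same without its replicate 3. With 6 genes these shares lie near those of all genes. Drd4 and Eppin, androgen-responsive genes of Sertoli cells in the mouse, rose by 3.99 ± 0.55 and 3.54 ± 0.46 in IMA10, 4.22 ± 0.55 and 3.79 ± 0.46 in IMC, and 4 ± 0.55 and 3.49 ± 0.46 in Sa. Tubb3 rose by 2.76 ± 0.44, 3.07 ± 0.44 and 2.91 ± 0.44 in the same order of groups. In IMA10 without replicate 3, the values were 4.82 for Drd4, 4.24 for Eppin and 3.41 for Tubb3. Rxfp2, the receptor for insulin-like factor 3, which male germ cells express, was low throughout, at 0.10, 0.48 and 2.45 FPKM in IMA10, 0.61, 0.94 and 0.21 in IMC, 1.09, 0.88 and 0.56 in Sa, and 2.62, 2.74 and 1.87 in Con. Without IMA10 replicate 3, 4 of these 6 genes were called higher in IMA10 than in Sa, where 7.34% of all genes and all 12 Sertoli markers (median 0.65) were called higher too. The part of Sertoli cells in that count was not tested.

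The genes whose centred log2 profile over the 12 libraries lay closest to the mean of the 10 genes were Scd1, Pld3, Cxcl12, Fxyd1 and Aldh1l1, each with a root mean square difference of 0.13. Scd1, a fatty acid desaturase, had 20.3, 19.9 and 5.62 FPKM in IMA10, 10.4, 17.1 and 30.9 in IMC, 13.8, 31.8 and 24.4 in Sa, and 1.70, 1.28 and 1.35 in Con. Of the 10 genes themselves, Lhcgr lay nearest to the mean profile at 0.15 and was 11th among all genes tested, Nr5a1 lay at 0.39, and Srd5a1 at 1.18 was the farthest. The mean profile includes the 10 genes, and likeness over 12 libraries mostly follows the gap between busulfan and Con.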

How the data were processed

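FPKM values were computed by the authors for 12 libraries and deposited with 2 decimals, per the file headers; the aligner, counter, build and annotation were not given in the sources used here, and depth is unknown. All 12 columns were used. Gene IDs were matched to symbols in a RefSeq table (GRCm38.p6; 20141 of 20288 numeric IDs). Log2(FPKM + 1) values of 15472 genes were fitted in limma 3.58.1 (R 4.3.3) with 1 mean per group, a variance trend and Benjamini-Hochberg adjustment over all genes, checked on simulated data. Ratios were tested in scipy 1.17.1. The 10 genes and 15 lists (135 genes, 134 in the table, 118 tested) were chosen with earlier results of these data known. Named are the 10 genes, from each list the up to 3 with the smallest p in Sa minus Con and the one with the highest mean, the Hsd3b family, and the 5 nearest profiles; genes outside this rule are named where a count or family turns on them. Cell type lists outside Leydig cells are given mainly as counts; 1 gene the rule names is not reported here. Alternatives were other scalings, pseudocounts and filters, pairwise fits, a replicate block and leaving out each library.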

Additional observations from a re-analysis of the deposited data

How the results depend on the processing

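Limits: with 3 libraries a group and no counts, intervals within the busulfan groups span several-fold, and precision is set by the spread between libraries. Against Con, all fits kept 9 of the 10 genes called and higher; Srd5a1 was tested in every fit except the filter of 5 FPKM, which it did not pass. In Sa it was at -0.09 with median-of-ratios scaling and -0.19 with quantile normalization, in IMC at -0.17 and -0.23, and leaving out 1 library gave 0.33 to 0.46 in Sa and 0.19 to 0.32 in IMC; the cause was not tested. Replicate numbers did not pair the libraries (5 of 18 same-number pairs had correlated deviations over 0.1, range -0.77 to 0.55), and a replicate block left Srd5a1 in Sa at 0.42 with adjusted p = 0.0529 (limma). Genes changed numbered 1 for IMC minus Sa and 1 for IMA10 minus Sa with a pseudocount of 0.1, 1 and 2 with no filter, and 0 to 4931 (without IMA10 replicate 3) for IMA10 minus Sa and 0 to 2 for IMA10 minus IMC on leaving out 1 library. For IMC minus Sa, quantile normalization gave -0.03 for Hsd3b1 and 0.0 for Hsd17b3. Leaving out 1 library there gave Lhcgr -0.54 to 0.21, Star -0.32 to 0.05, Cyp11a1 -0.49 to 0.28, Hsd3b1 -0.55 to 0.36, Hsd3b6 -0.75 to 0.16, Cyp17a1 -0.68 to 0.11, Hsd17b3 -0.30 to 0.40 and Insl3 -0.31 to 0.57. For IMA10 minus Sa it gave Nr5a1 -0.77 to 0.35, Star -0.96 to 0.03, Srd5a1 -0.04 to 0.13 and Insl3 -0.80 to 0.18, and for IMA10 minus IMC Nr5a1 -0.96 to 0.16 and Star -0.88 to 0.11. Of the ratios, 0 to 3 passed on leaving out 1 library, which raises the smallest p in every case. Without IMC replicate 1, 3 passed, since Cyp11a1 over Star joined at the smallest p and so lowered the adjusted p. With any other library left out, 0 passed. Star over Lhcgr was -0.36 with a pseudocount of 0.1 and -0.14 to 0.16 on leaving out 1 library, and Cyp17a1 over Hsd3b6 -0.06 to 0.43.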
